A study of Homo sapiens with 6 samples.

Results

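The mRNA levels of 29 genes of cholesterol and fatty acid synthesis were followed in 6 RNA-seq libraries made from MRC5, fibroblasts of human embryonic lung grown as a line. The genes were taken by symbol from textbook pathways, and the choice was made with earlier results of these data known. They comprise 18 enzymes that lead from acetyl-CoA to cholesterol, 7 enzymes of fatty acid synthesis and desaturation, the regulators SREBF1, SREBF2 and INSIG1, and the sterol carrier STARD4. All 29 were found on a row of their own in both deposited tables, among 25368 different symbols, and all 29 had a mean of at least 1 FPKM over the 3 libraries of each table.

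The first table holds MRC5 cells, iCAFs and iCAFs+JNKi. The MRC5 cells were untreated and were kept in DMEM with fetal bovine serum. iCAFs (induced cancer-associated fibroblasts) were MRC5 cells grown for 7 days in medium conditioned by MDA-MB-231 breast cancer cells, and iCAFs+JNKi had in addition the JNK inhibitor JNK-IN-8 at 1 µM for 48 h. According to the methods, cancer cells conditioned this medium in DMEM lacking serum, so any lack of serum and the factors made by the tumour cells cannot be told apart in iCAFs. The labels name DMSO as the vehicle, without saying that the iCAFs library is the vehicle arm. The second table holds MRC5 cells infected for 2 h with adenovirus carrying an empty vector (control), wild-type JUN (JUN WT) or a JUN whose JNK phosphorylation serines are replaced by alanine (JUN AA), and cultured for 3 days. All cells derive from the same hTERT-immortalised line, and the introduced JUN carried a FLAG tag.

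Each condition had 1 library, so no difference given here has a replicate check, no error between libraries can be stated, and no test was made. Values are FPKM (fragments per kilobase of exon, scaled to the mapped fragments of the library) as deposited, and differences are on the log2(FPKM + 1) scale, which understates changes of genes with low values. "2-fold" means a difference of at least 1 on that scale. The tables were normalised separately, so libraries were compared only within a table.

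Cholesterol is built from acetyl-CoA through mevalonate, isoprenoid units, squalene and lanosterol. The genes of this route share a transcription factor, SREBP-2, encoded by SREBF2, while SREBP-1, encoded by SREBF1, acts more on fatty acid synthesis. When membranes are rich in sterol, INSIG1 protein holds the SREBP precursors in the endoplasmic reticulum, and INSIG1 is itself a known SREBP target. In fibroblasts these enzymes supply membrane lipids and answer to the lipids that serum brings.

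SREBPs bind sterol regulatory elements in promoters, often beside the factors NF-Y, which binds CCAAT, and Sp1, which binds GC boxes such as GGGCGG. Promoter windows of 300 bases, from 250 before to 50 after the transcription start in RefSeq (GRCh38.p14), were at hand for 25 of the 29 genes and held 34 windows. The following stretches of 60 bases come from the genes with the lowest iCAF to MRC5 differences that had a window, from SREBF2 and from EBP, the gene with the highest JUN WT to control difference. They read in the direction of the gene, end before its start, and show in capitals CCAAT or its reverse complement and, in SREBF2, also the element TCACCCCAC. Each stretch was cut around the sterol element or, without one, around the CCAAT nearest the start. A promoter with neither gave no stretch, so the presence of a match in those printed was set by this choice.
SCD, chr10:100347020-100347079, plus strand: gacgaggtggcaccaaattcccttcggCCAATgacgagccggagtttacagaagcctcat
HMGCS1, chr5:43313480-43313539, minus strand: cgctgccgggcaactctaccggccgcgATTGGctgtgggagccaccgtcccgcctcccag
INSIG1, chr7:155297681-155297740, plus strand: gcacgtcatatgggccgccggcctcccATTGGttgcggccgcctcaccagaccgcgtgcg
MVK, chr12:109573721-109573780, plus strand: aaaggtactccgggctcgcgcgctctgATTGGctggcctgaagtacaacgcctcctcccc
LSS, chr21:46228892-46228951, minus strand: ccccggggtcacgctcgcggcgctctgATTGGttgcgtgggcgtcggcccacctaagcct
SREBF2, chr22:41832947-41833006, plus strand: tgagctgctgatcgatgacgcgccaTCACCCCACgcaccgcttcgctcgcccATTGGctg
EBP, chrX:48521748-48521807, plus strand: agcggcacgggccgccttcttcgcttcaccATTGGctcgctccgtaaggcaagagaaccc

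Between the CCAAT match and the start lay 181 bases in SCD, 95 in HMGCS1, 165 in INSIG1, 41 in MVK, 145 in LSS and 25 in EBP, and 124 bases lay between the TCACCCCAC match and the start of SREBF2. Searched on both strands, CCAAT was present in 24 of the 34 windows, or 70.6%, against 34.6% of all 35116 promoter windows. GGGCGG was present in 30 of 34, or 88.2%, against 45.0% of all windows. TCACCCCAC was found in 1 window, that of SREBF2, against 0.430% of all windows, and allowing any base at the fifth position (TCACNCCAC, which includes the former) added no other of these genes. The pattern TGANTCA, with any base at N, includes the AP-1 site known to bind JUN and FOS dimers but is wider than that site. It was in 0 of the 34 windows and in 7.71% of all windows. All windows came from 27305 symbols with no filter on expression, and a gene could have several windows. Counted by gene, CCAAT was in 20 of 25, or 80%, against 39.7% of those symbols. A background of expressed genes was not tested. These matches describe letters within 300 bases and do not locate bound sites.

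Before the values, the libraries were checked against their labels. The JUN gene stood at 4543 FPKM with JUN WT and 291 FPKM with JUN AA, against 25.5 in the control. In MRC5, iCAFs and iCAFs+JNKi it was at 57.1, 55.3 and 21.1 FPKM. All 8 fibroblast markers were at 12.1 FPKM or more in all 6 libraries, with sums from 3983 FPKM in iCAFs to 6242 in the control. Single markers differed between libraries in both directions. LUM was at 94.5 FPKM in the control, against 24.9 with JUN WT and 240 with JUN AA. DCN was at 296 FPKM in MRC5, against 107 in iCAFs and 409 in iCAFs+JNKi. Summed FPKM of the 4 epithelial and carcinoma markers were 2.02 in MRC5 and 0.926 in iCAFs and between 0.163 and 0.501 in the others. They were, for the 3 endothelial markers, between 0.0151 and 0.310, and for the 3 adipocyte and 2 hepatocyte markers at most 0.0426, with CDH1, KRT5, CD3E, CDH5, ADIPOQ, LEP and APOA1 listed at 0 in every library. Of the 3 leukocyte markers CD68, which fibroblasts can express, stood at 31.1 to 85.7 FPKM and was highest in JUN WT, and its part in the JUN WT differences was not tested. Read totals are not given in the sources used here. Deposited FPKM summed to between 359947 in iCAFs+JNKi and 613185 in JUN AA, so the effect of rescaling every library to the same sum is given with each comparison whose directions it changed.

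Expression of the lipid synthesis genes was lower in iCAFs than in MRC5 throughout. All 29 were below their MRC5 level, while 59.4% of the 11780 genes that passed the same filter on low values were lower. The median difference was -0.96 for the 18 sterol enzymes and -0.70 for the 7 fatty acid enzymes, beside -0.06 for all genes. At the 2-fold threshold 12 of the 29 were lower and 0 higher, among all genes 1.71% and 1.94% respectively. At 1.5-fold, 21 of the 29 were lower, among all genes 6.3%. The direction held for all 29 under each scaling tried. As bulk RNA was measured, fewer cells making a transcript and less transcript per cell cannot be told apart.

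**Figure D1:**
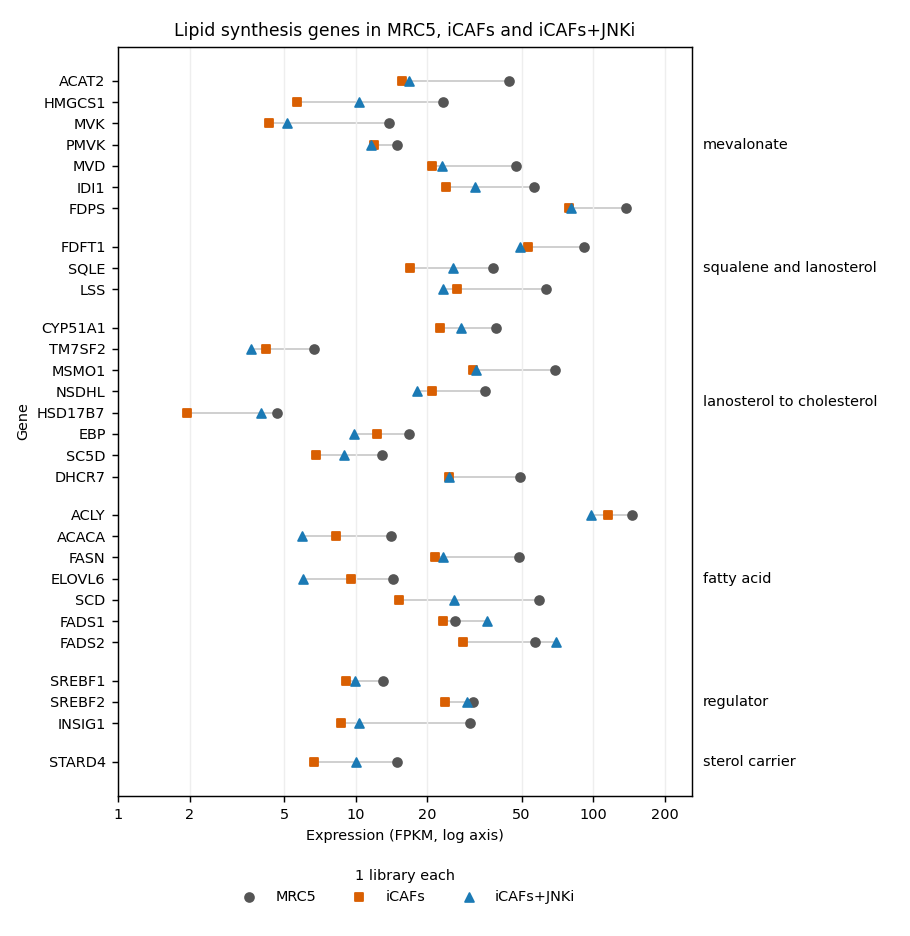
Expression of the 29 genes in MRC5 (circles), iCAFs (squares) and iCAFs+JNKi (triangles), in FPKM on a log axis, with 1 library each and genes ordered by their place in the pathway. Every square lies left of its circle. Triangles lie left of the circles for 27 genes and right of them for FADS1 and FADS2.

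The entry into the sterol pathway had the lowest median of its 3 segments. The 7 genes from ACAT2 to FDPS, here called the mevalonate segment, had a median difference of -1.20, and their summed FPKM was 337 in MRC5 and 161 in iCAFs. HMGCS1, the cytosolic HMG-CoA synthase that makes the precursor of mevalonate, was at 23.3 FPKM in MRC5, against 5.65 in iCAFs and 10.3 with the inhibitor. The iCAF level of HMGCS1 was 24.2% of that in MRC5 (log2 difference -1.87), lower than for all but 0.195% of the genes tested. A lncRNA gene model on the opposite strand shares 37.7% of the HMGCS1 exon bases.

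MVK, mevalonate kinase, was at 13.8 FPKM in MRC5, against 4.32 in iCAFs and 5.14 with the inhibitor, which put iCAFs at 31.4% of MRC5. ACAT2, the cytosolic thiolase that joins acetyl-CoA units, was at 44.2, 15.6 and 16.8 FPKM. Both libraries with conditioned medium lay close together for these enzymes and well under MRC5. MVD, which decarboxylates mevalonate diphosphate, was at 47.3 FPKM in MRC5, against 21.0 in iCAFs and 23.1 with the inhibitor. IDI1, the isomerase of isopentenyl diphosphate, was at 56.4, 23.9 and 31.7 FPKM. The log2 differences of iCAFs to MRC5 were -1.47 for MVK, -1.44 for ACAT2, -1.14 for MVD and -1.20 for IDI1. PMVK and FDPS, the other genes of the segment, were lower by less than 2-fold, with the highest difference of the segment, -0.29, in PMVK. On the annotation used, FDPS shares 18.6% of its exon bases with RUSC1-AS1 on the opposite strand. ACAT2 likewise shares 17.2% with TCP1, and IDI1 shares 15% with IDI2-AS1.

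In the squalene and lanosterol segment the summed FPKM of the 3 enzymes was 193 in MRC5, against 96.9 in iCAFs and 98.3 with the inhibitor. LSS, which closes squalene epoxide into lanosterol, was at 63.2 FPKM in MRC5, against 26.8 in iCAFs and 23.3 with the inhibitor. SQLE, squalene epoxidase, was at 37.9 FPKM in MRC5, against 17.0 in iCAFs and 25.7 with the inhibitor. Differences of iCAFs to MRC5 were -1.21 for LSS and -1.11 for SQLE. The enzymes parted with the inhibitor, with LSS lowest in iCAFs+JNKi and SQLE between iCAFs and MRC5. FDFT1, squalene synthase, had the smallest difference of the segment, -0.78.

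The 8 enzymes from lanosterol to cholesterol had a median difference of -0.79, with 1 of the 8 past 2-fold. That gene was MSMO1, a sterol C4-methyl oxidase, at 69.1 FPKM in MRC5, against 31.3 in iCAFs and 32.1 with the inhibitor, a log2 difference of iCAFs to MRC5 of -1.12. The others, CYP51A1, TM7SF2, NSDHL, HSD17B7, EBP, SC5D and DHCR7, ranged from -0.97 in DHCR7 to -0.42 in EBP. As a plain ratio of FPKM, HSD17B7 was lower than MSMO1, at 41.5% of MRC5 against 45.3%. Its values were low, 4.67 FPKM in MRC5 and 1.94 in iCAFs, where this scale understates changes (difference -0.95). FPKM of CYP51A1 and EBP are the less certain ones here, since 68.2% of the CYP51A1 exon bases and 36.4% of the EBP exon bases also belong to another gene model on the same strand.

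Among the fatty acid enzymes the changes were more uneven. SCD, the stearoyl-CoA desaturase that makes oleate, was at 59.2 FPKM in MRC5, against 15.2 in iCAFs and 25.8 with the inhibitor. Its iCAF level was 25.7% of MRC5 (log2 difference -1.89), lower than for all but 0.187% of the genes tested and the lowest of the 29. FASN, fatty acid synthase, was at 48.7, 21.5 and 23.4 FPKM, a difference of iCAFs to MRC5 of -1.14. FADS2, the delta-6 desaturase of polyunsaturated fatty acids, was at 56.9 FPKM in MRC5 and 28.2 in iCAFs (difference -0.98) and differed most from iCAFs under the inhibitor.

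ACACA, the acetyl-CoA carboxylase that makes malonyl-CoA, and ELOVL6, an elongase of saturated fatty acids, showed a stepwise order. ACACA was at 14.1 FPKM in MRC5, against 8.26 in iCAFs and 5.92 with the inhibitor. ELOVL6 was likewise at 14.4, 9.54 and 5.99 FPKM. Neither was 2-fold lower in iCAFs than in MRC5, with -0.70 and -0.55, while both were in iCAFs+JNKi, with -1.12 and -1.14. ACLY, which releases acetyl-CoA from citrate, and FADS1 differed by -0.32 and -0.16 in iCAFs, the latter being the smallest difference of the 29. ACLY had the same stepwise order, at 145 FPKM in MRC5, against 116 in iCAFs and 98.4 with the inhibitor. Its difference of iCAFs+JNKi to MRC5 was smaller, -0.56.

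The regulators and the carrier were lower as well. INSIG1 was at 30.2 FPKM in MRC5, against 8.66 in iCAFs and 10.3 with the inhibitor, so that iCAFs held 28.7% of the MRC5 level (log2 difference -1.69). STARD4, which carries sterol between membranes, was at 14.9, 6.66 and 10.1 FPKM (difference -1.05). The genes of the SREBPs themselves were nearer to MRC5. SREBF1 was at 13.1 FPKM in MRC5, against 9.09 in iCAFs and 9.91 with the inhibitor, and SREBF2 was at 31.1, 23.8 and 29.5 FPKM. Their iCAF differences, -0.48 and -0.37, were under 1.5-fold.

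**Figure D2:**
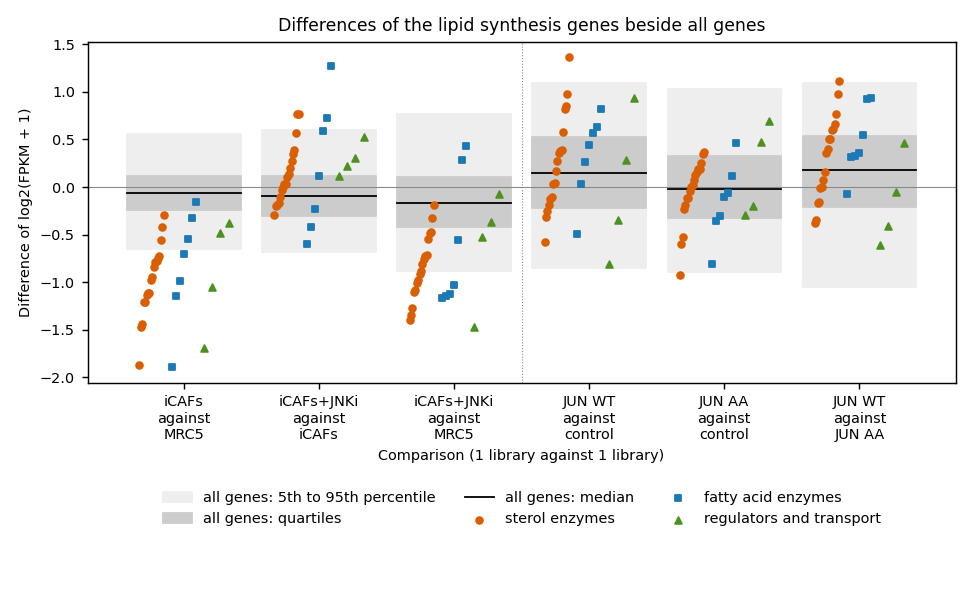
Differences in log2(FPKM + 1) of the 29 genes in the 6 comparisons, each of 1 library with 1 library, as circles for sterol enzymes, squares for fatty acid enzymes and triangles for regulators and transport. Grey boxes span the quartiles and the 5th to 95th percentiles of all genes tested and the line is their median. Most points of iCAFs against MRC5 lie under the light box, and most points of the JUN comparisons lie within it.

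Most of these genes were near their iCAF level in iCAFs+JNKi. In the inhibitor library 19 of the 29 were higher and 10 lower, while 37.4% of all genes tested were higher and 62.6% lower. The split of the 29 was 22 and 7 after rescaling and 21 and 8 after centring on the median of all genes. The median difference was 0.07 for sterol enzymes and 0.12 for fatty acid enzymes, beside -0.10 for all genes, or 0.01 for all genes after rescaling. At 2-fold, 1 gene was higher and 0 were lower, among all genes 2.25% and 1.97%. At 1.5-fold, 5 were higher and 1 lower, among all genes 5.17% and 7.49%. The higher share of all 2-fold genes was 53.3%, and 62.7% after rescaling and 64.0% after centring. JUN itself, the transcript of the gene whose product the kinase phosphorylates, was at 55.3 FPKM in iCAFs and 21.1 in iCAFs+JNKi.

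FADS2 was the gene past 2-fold. Its 69.7 FPKM in iCAFs+JNKi stood against 28.2 in iCAFs and 56.9 in MRC5, a difference of 1.27 to iCAFs that exceeded 98.6% of the genes tested. HMGCS1 with 0.77, SCD with 0.73 and FADS1 with 0.59 were also past 1.5-fold, as was the sterol reductase HSD17B7 with 0.76. ELOVL6, with -0.59, was the gene lower by 1.5-fold. FADS1 and FADS2 lie head to head and share 490 exon bases on opposite strands, 4.79% and 4.64% of their exon bases.

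Set between the other libraries, iCAFs+JNKi was between iCAFs and MRC5 for 11 of 18 sterol enzymes, at or below iCAFs for 7, and at or above MRC5 for 0. For the 7 fatty acid enzymes these numbers were 2, 3 and 2. All 4 regulators and transport genes were between. Rescaling turned the small differences to iCAFs of PMVK, FDFT1 and DHCR7 from lower to higher, each under 0.15 in size on either scale.

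Relative to MRC5, iCAFs+JNKi had 27 lower and 2 higher genes. The median difference was -0.85 for sterol enzymes, -1.03 for fatty acid enzymes and -0.16 for all genes. All genes centred on -0.04 after rescaling, with a higher share of 2-fold genes of 48.1% as deposited, 59.3% rescaled and 65.9% centred. The 2-fold threshold was passed by 11 of the 29 downwards and 0 upwards, among all genes 3.53% and 3.28%, and by 7 and 5 downwards after rescaling and centring. At 1.5-fold, 18 were lower, among all genes 14.4%. INSIG1, with -1.47, and LSS, with -1.40, were lowest. FADS1 with 0.43 and FADS2 with 0.29 were the higher genes. SREBF2 differed by -0.07, a sign that turned on rescaling and on centring, and with GC and length trends removed. The mean of the fatty acid enzymes, -0.61, was less negative than their median, since the FADS genes stood apart.

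**Figure D3:**
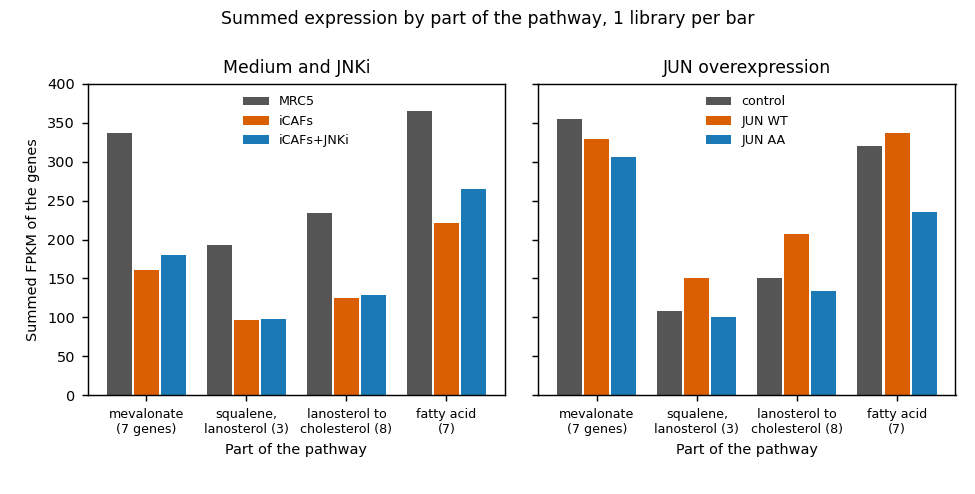
Summed FPKM of the enzymes of 4 parts of the pathway, with 1 bar per library and an axis from 0. Left, MRC5, iCAFs and iCAFs+JNKi, where the mevalonate bars stand at 337, 161 and 180. Right, control, JUN WT and JUN AA, where the lanosterol to cholesterol bars stand at 150, 207 and 133.

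With JUN overexpression the same genes differed in both directions. In JUN WT 20 were higher and 9 lower than in the control, beside 60.9% of all 10311 genes tested that were higher. The median difference was 0.22 for the sterol enzymes and 0.44 for the fatty acid enzymes, beside 0.15 for all genes. Relative to that shift the medians were 0.07 and 0.29, and the sterol enzymes were split into 10 higher and 8 lower. At 2-fold, 1 of the 29 was higher and 0 lower, among all genes 6.92% and 3.39%, and at 1.5-fold 7 were higher and 1 lower, among all genes 22.1% and 10%. By these counts the 29 genes were close to the background of all genes. The higher share of all 2-fold genes was 67.1%, and 45.5% after centring. Differences of JUN WT also followed the GC content of transcripts across 9393 genes, with a Spearman rho of -0.39 (genes are not independent replicates), and the sterol median was 0.00 once GC and length trends were removed.

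The gene past 2-fold in JUN WT was EBP, the sterol isomerase, with 18.3 FPKM in the control, against 48.8 with JUN WT and 22.0 with JUN AA. JUN WT was at 266% of the control (log2 difference 1.36), and the control and JUN AA lay close together. The EBP values carry the limit given above, as 36.4% of its exon bases also belong to another gene model on the same strand. FDFT1 was at 44.2 FPKM in the control, against 87.9 with JUN WT and 44.2 with JUN AA, so that JUN WT alone stood apart, with a difference of 0.98 that was 0.44 with GC and length trends removed. STARD4 was at 4.96, 10.4 and 7.28 FPKM, with JUN AA between the others and a JUN WT difference of 0.93.

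MSMO1 was at 18.8 FPKM in the control, against 34.7 with JUN WT and 24.1 with JUN AA. ELOVL6 was at 3.27, 6.56 and 4.90 FPKM in this order. Their JUN WT differences were 0.85 and 0.82, and 0.45 and 0.51 with the trends removed. ACLY was at 56.5 FPKM in the control, against 88.1 with JUN WT and 45.7 with JUN AA, and FADS1 was at 17.6, 26.6 and 13.6 FPKM. For both genes JUN WT was highest and JUN AA lowest, with differences of JUN WT to JUN AA of 0.93 and 0.92.

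**Figure D4:**
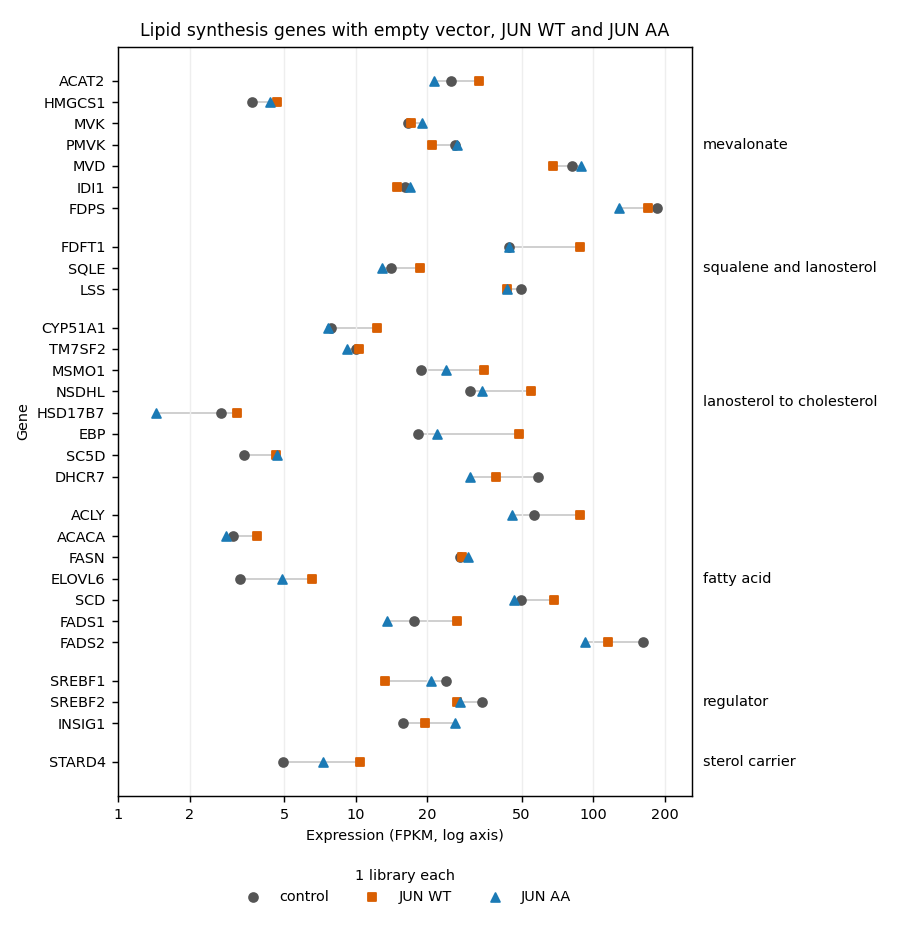
Expression of the 29 genes in control (circles), JUN WT (squares) and JUN AA (triangles), in FPKM on a log axis, with 1 library each and genes in pathway order. EBP and FDFT1 have squares far to the right of the other symbols, and SREBF1 has its square far to the left.

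By segment, the later steps lay higher in JUN WT than the earlier ones as deposited, beside a median of 0.15 for all genes. The 8 enzymes from lanosterol to cholesterol had a median of 0.47, with 7 higher and 1 lower and a summed FPKM of 150 in the control and 207 in JUN WT. The mevalonate segment had a median of -0.10, with 3 higher and 4 lower and sums of 355 and 329 FPKM. The exception among the late enzymes was DHCR7, which reduces 7-dehydrocholesterol to cholesterol, at 58.5 FPKM in the control, against 39.0 with JUN WT and 30.2 with JUN AA. It was highest in the control, with differences of -0.57 and -0.93. The squalene and lanosterol segment had a JUN WT median of 0.39 as deposited and 0.0009 with GC and length trends removed. With these trends removed, the median was 0.27 from lanosterol to cholesterol and -0.16 in the mevalonate segment. The difference between the segments was not tested.

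The regulators did not share 1 order. SREBF1 was at 23.9 FPKM in the control, against 13.2 with JUN WT and 20.7 with JUN AA, a JUN WT difference of -0.81 that was -0.47 with GC and length trends removed. SREBF2 was at 34.1, 26.6 and 27.6 FPKM, lower in both JUN libraries, although its JUN AA difference of -0.29 was 0.01 with those trends removed. INSIG1 was at 15.8 FPKM in the control, against 19.5 with JUN WT and 26.3 with JUN AA and thus highest in JUN AA. Its JUN WT difference of 0.29 turned to -0.23 with the trends removed. The other 18 genes differed by less than 1 in size in all 3 comparisons, and the largest of these sizes, 0.82, was that of NSDHL in JUN WT to control.

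In JUN AA the result depended on the scaling. As deposited, 13 of the 29 stood above the control and 16 below, with medians of 0.01 for sterol and -0.10 for fatty acid enzymes and -0.02 for all genes. No member passed 2-fold in either direction, while 5.29% of all genes were higher and 3.77% lower by that threshold, and at 1.5-fold 1 was higher and 3 were lower, among all genes 13.6% and 12%. Rescaling to equal sums moved the median of all genes to -0.29 and the sterol and fatty acid medians to -0.29 and -0.41, with 24 of the 29 genes and 16 of 18 sterol enzymes lower. DHCR7, at -1.25, and FADS2, at -1.12, were then 2-fold lower. It also brought the higher share of all 2-fold genes from 58.4% to 26.1%. Rescaling turned 8 genes from higher to lower, HMGCS1, MVK, MVD, PMVK, IDI1, NSDHL, FASN and EBP, whose deposited differences were 0.25 (EBP) or less.

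Set directly against JUN AA, JUN WT had 19 higher and 10 lower genes, with medians of 0.37 for sterol and 0.36 for fatty acid enzymes and 0.18 for all genes. EBP, with 1.12, was the gene past 2-fold upwards and 0 were past it downwards, among all genes 6.65% and 5.61%. Centring put EBP at 0.93 and left 0 genes past 2-fold. At 1.5-fold, 8 were higher and 1 lower, among all genes 21.8% and 12.4%. Rescaling moved the median of all genes to 0.47 and the higher share of all 2-fold genes from 54.3% to 82.9%, while centring put that share at 33.3%. After rescaling 16 of 18 sterol enzymes were higher. MVK, IDI1, LSS, SC5D, FASN and SREBF2 turned from lower to higher, with SREBF2 going from -0.05 to 0.24, and the median of the regulators and transport genes went from -0.23 to 0.06. As JUN mRNA differed between these libraries too, the alanine exchange and the amount of JUN cannot be told apart.

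Genes around these routes were read from lists of the same pathways. The 4 genes that process SREBPs, SCAP, INSIG2, MBTPS1 and MBTPS2, had a median of 0.17 in iCAFs against MRC5, with 3 higher and none past 2-fold in either direction. The 8 genes of the isoprenoid branch, which use farnesyl diphosphate for prenylation, dolichol and ubiquinone, had a median of -0.07 with 0 past 2-fold. Among all genes the median was -0.06, 40.6% were higher, and 1.94% were 2-fold higher and 1.71% 2-fold lower. The contrast of these lists with the sterol enzymes was not tested.

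Genes of lysosomal sterol release passed 2-fold in both tables. In iCAFs 3 of the 4 were lower than in MRC5, 2 of them by 2-fold, and the median was -0.98. Among all genes 59.4% were lower, 1.71% by 2-fold, with a median of -0.06. NPC2, which hands cholesterol on inside the lysosome, was at 171 FPKM in MRC5, against 69.0 in iCAFs and 116 with the inhibitor. TMEM97, a sterol-responsive membrane protein, was at 9.30, 2.90 and 4.70 FPKM. NPC1, the membrane partner of NPC2, went the other way, with 15.1 FPKM in MRC5, against 29.5 in iCAFs and 39.3 with the inhibitor. In the JUN table LIPA, lysosomal acid lipase, was at 5.11 FPKM in the control, against 37.5 with JUN WT and 12.5 with JUN AA. NPC2 was at 142, 319 and 85.7 FPKM there, and TMEM97 at 2.52, 5.01 and 1.49 FPKM. All 4 genes of this list were higher in JUN WT than in the control, 2 of them by 2-fold, with a median of 0.96. Among all genes 60.9% were higher, 6.92% by 2-fold, with a median of 0.15.

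Of the 6 genes for LXR, efflux, esterification and oxysterols that reached a mean of 1 FPKM out of 8, 1 was 2-fold lower in iCAFs, with a list median of 0.02. It was NR1H3, which encodes the sterol receptor LXR alpha, at 5.89 FPKM in MRC5, against 2.39 in iCAFs and 2.26 with the inhibitor. Among all genes 1.71% were 2-fold lower in iCAFs, with a median of -0.06. In the JUN table the median of the 5 genes that reached the mean was -0.46 in JUN WT against control, beside 0.15 for all genes. SOAT1, which esterifies cholesterol, was at 3.97 FPKM in the control, against 9.09 with JUN WT and 3.09 with JUN AA. INSIG2, the relative of INSIG1, was at 1.63, 2.01 and 4.46 FPKM and was, like INSIG1, highest in JUN AA.

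For the other lipogenic genes, 7 of 8 reached the mean in the first table, with a median of -0.24 in iCAFs and 1 gene past 2-fold. LPIN1, a phosphatidate phosphatase of triglyceride synthesis, was at 35.4 FPKM in MRC5, against 10.3 in iCAFs and 9.60 with the inhibitor. In the JUN table ACSL3, which activates fatty acids, was at 7.08 FPKM in the control, against 18.2 with JUN WT and 11.2 with JUN AA. On the opposing route, the 8 genes of fatty acid oxidation had a median of 0.07 in iCAFs, and 1 was past 2-fold. That was PDK4, a kinase that restrains pyruvate entry into acetyl-CoA, at 0.0848 FPKM in MRC5, against 6.0 in iCAFs and 24.6 with the inhibitor. For both lists, the shares of all genes in iCAFs were 1.94% 2-fold higher and 1.71% 2-fold lower, with a median of -0.06.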

How the data were processed

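RNA of 6 MRC5 libraries, 1 per condition, was measured by RNA-seq with a kit not stated to keep strand. The authors mapped reads to hg19 with HISAT2 2.1.0 and deposited FPKM per gene from StringTie 2.1.1. The annotation and the read numbers are not given in the sources used here, so depth and the precision of a value are unknown. Tables held 25370 rows each. Where rows shared a symbol (4 rows a table), that of higher mean was used, and the 28 symbols per file that had become dates include no gene described here. Low values showed a common step only in the table with iCAFs, where the most common ratios were 1.02 for iCAFs to MRC5 and 1.05 for iCAFs+JNKi to iCAFs.

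Differences in log2(FPKM + 1) were then taken with Python 3.11.15, numpy 2.4.6 and pandas 2.3.3 (figures with matplotlib 3.10.9) for 6 comparisons, 3 within each table. Counts and medians used genes whose mean over 3 libraries reached 1 FPKM, 11780 in the table with iCAFs and 10311 in the JUN table. A gene was given with every library's value where its difference reached 1 in any comparison of a table, or among the 8 largest where fewer than 8 did so, and SREBF1, SREBF2 and INSIG1 always. Of other pathway lists, up to 3 genes past 2-fold were named. The members and lists were chosen with earlier results of these data known. Alternatives were FPKM rescaled to a sum of 1000000, a pseudocount of 0.1, centring on the median of all genes, a filter of 5 FPKM or none, list means, a 1.5-fold threshold, summed rows of a symbol, and removal of GC and length trends as medians in 20 bins, with values for 91.1% and 90.4% of genes in the JUN and iCAF tables. Exon overlaps came from GENCODE on GRCh37 and promoters from RefSeq. The computation was tested on simulated data.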

Additional observations from a re-analysis of the deposited data

How the results depend on the processing

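With 1 library per condition there is no error to set a difference against, no library could be left out, and unknown read numbers limit the low values most. A value was taken as moved beyond 0.25 on the log2 scale or, for counts, 1.5 times, limits chosen here. No paired analysis was possible because each condition has 1 library. No difference past 2-fold changed sign under any alternative run, and of the medians those of JUN AA against control did. Of the 84 medians of the sterol and fatty acid enzymes over all alternatives, 79 did not move, and of 84 counts of genes past 2-fold 65 did not. At a 1.5-fold threshold the counts of higher and lower genes became 7 and 1 for JUN WT to control, 1 and 3 for JUN AA to control, and 8 and 1 for JUN WT to JUN AA. In iCAFs 21 were then lower than in MRC5, in iCAFs+JNKi 5 were higher and 1 lower than in iCAFs, and 18 were lower than in MRC5. Rescaled FPKM gave medians of -0.29 and -0.41 for sterol and fatty acid enzymes in JUN AA against control, with 2 genes 2-fold lower, and 0.67 and 0.66 in JUN WT against JUN AA, with 5 genes 2-fold higher. Rescaling also left 2 genes 2-fold higher in iCAFs+JNKi than in iCAFs and 7 lower than in MRC5. Centring left 0 genes 2-fold higher in JUN WT against JUN AA and 5 lower in iCAFs+JNKi against MRC5. With a pseudocount of 0.1, 2 genes were 2-fold higher in JUN WT against control, 2 in JUN WT against JUN AA and 2 in iCAFs+JNKi against iCAFs. The mean of the fatty acid enzymes in iCAFs+JNKi against MRC5 was -0.61 and their median -1.03. Removal of GC and length trends moved none of these medians or counts by these limits, and 14 of 84 single values. The limit of 0.25 is wide beside small medians. In JUN WT against control this removal took the sterol median from 0.22 to 0.005 and the fatty acid median from 0.44 to 0.23. Rescaling moved 21 of 84 single values. The causes of these shifts were not tested.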
